A study of Mus musculus with 32 samples.

Results

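The Trp53 family and its core regulators were followed through the egg-to-embryo transition of the mouse as 8 genes of the 54532 in the deposited expression table. They were chosen by name: Trp53, its paralogs Trp63 and Trp73, the ubiquitin ligase Mdm2 and its partner Mdm4, the phosphatase Ppm1d, the deubiquitinase Usp7 and the damage-response adaptor Trp53bp1. All 8 have a row in the table. RNA was measured by SMART-seq, which copies polyadenylated RNA into full-length cDNA and marks no strand, in 32 libraries of a single egg or embryo each, lysed in 5 uL and amplified over 15 cycles. At the metaphase II egg there were 3 libraries labelled Trp53 KO and 3 WT. At the early 2-cell stage there were 6 labelled Trp53 MZ-KO and 8 WT, and at the late 2-cell stage 6 labelled Trp53 MZ-KO and 6 WT. The submitters' design text gives 6 replicates for early 2-cell embryos, and all 8 labelled WT were used.

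KO animals carried a Trp53 allele deleted between loxP sites that flank exons 2 to 10, made with the germ-cell driver Ddx4::Cre, and MZ-KO embryos came from KO mothers mated to KO fathers. The WT groups were Trp53 flox/flox animals, so they too carry loxP sites. All animals were of a mixed Bl6/C57 background, and all embryos were grown in KSOM medium. Early embryos were taken 28 to 32 hours and late embryos 48 hours after the hCG injection that triggers ovulation. Nothing in the labels ties an egg or embryo to its mother, so p-values measure the spread between single eggs or embryos, some of which may be littermates.

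p53, encoded by Trp53, is a transcription factor that halts the cell cycle or starts cell death after DNA damage, and p63 and p73 bind similar DNA sites. Mdm2 marks p53 for degradation, Mdm4 binds p53 and dampens its activity, and Usp7 removes ubiquitin from both p53 and Mdm2. The Mdm2 and Ppm1d genes are themselves activated by p53, which closes feedback loops. p63 guards the oocyte in the ovary, where it removes oocytes with broken DNA. The mature egg makes almost no new RNA, so its transcripts are maternal stores that are degraded as the embryo starts its own transcription during the 2-cell stage.

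In the GRCm38 build, Trp53 spans chr11:69580359-69591873 on the plus strand, Trp63 chr16:25683763-25892102 on the plus strand and Trp73 chr4:154056253-154140208 on the minus strand. Mdm2 spans chr10:117688875-117710758 and Mdm4 chr1:132959484-133030561, both on the minus strand. Ppm1d lies on the plus strand at chr11:85311244-85347066, Usp7 on the minus strand at chr16:8689595-8792308 and Trp53bp1 on the minus strand at chr2:121193281-121271407. The principal Trp53 transcript has 11 exons and 1771 bases, of which 680 (38.4%) lie outside exons 2 to 10. Of its 1170 coding bases, 79 (6.75%) lie outside those exons, all in exon 11 at chr11:69591350-69591428 on the plus strand. They are shown because they are the coding sequence that the deletion leaves, from the GENCODE M21 transcript, with no base in capitals:
Trp53 exon 11 coding part: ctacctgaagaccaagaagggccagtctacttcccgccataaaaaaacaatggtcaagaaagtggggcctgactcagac

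The 250 bases before the start of Mdm2, Mdm4 and Ppm1d are shown because those genes differed between genotypes in late embryos, from RefSeq with the GRCm38.p6 build. Capitals mark a p53 half-site, searched by its consensus on both strands, and in Ppm1d also the cAMP response element TGACGTCA, which reads the same on both strands. The windows are chr10:117710759-117711008 on the minus strand for Mdm2, chr1:133030588-133030837 on the minus strand for Mdm4 and chr11:85311004-85311253 on the plus strand for Ppm1d:
Mdm2: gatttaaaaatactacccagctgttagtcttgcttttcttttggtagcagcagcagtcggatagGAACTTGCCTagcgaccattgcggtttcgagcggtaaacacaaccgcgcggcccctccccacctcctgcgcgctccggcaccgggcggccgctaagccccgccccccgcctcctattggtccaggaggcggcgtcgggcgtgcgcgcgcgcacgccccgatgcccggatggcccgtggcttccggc
Mdm4: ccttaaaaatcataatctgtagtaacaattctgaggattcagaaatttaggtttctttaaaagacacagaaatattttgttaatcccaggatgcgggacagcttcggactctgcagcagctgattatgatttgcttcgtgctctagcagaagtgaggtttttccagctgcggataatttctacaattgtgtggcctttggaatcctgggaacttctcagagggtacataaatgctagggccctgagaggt
Ppm1d: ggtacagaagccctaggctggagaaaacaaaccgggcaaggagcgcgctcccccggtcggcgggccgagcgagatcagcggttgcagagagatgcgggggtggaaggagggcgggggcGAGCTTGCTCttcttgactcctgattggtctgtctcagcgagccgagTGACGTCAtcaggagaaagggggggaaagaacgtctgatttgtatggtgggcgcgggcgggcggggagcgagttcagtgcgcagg

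A p53 half-site was found in 8.36% of 32851 windows of the same kind, which reach 50 bases past the start, and TGACGTCA in 1.79%. RefSeq windows were matched for 7 of the 8 genes, Trp63 being the one without. Among them the half-site was in the windows of Mdm2, Trp53 and Ppm1d, and TGACGTCA in that of Ppm1d. The match is a description of letters and not of binding. The known p53 response elements of Mdm2 lie in its first intron, outside the window printed here.

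The values are FPKM, read counts scaled for gene length and library depth, and the length was that of the whole genomic span with introns. Low values of short genes were whole numbers of reads, within 0.1 read, for 99.37% or more of them per library when the span was used, and for at most 79.78% with the exonic length. The span is 2.85 times the exonic length for Trp53, 24.8 times for Trp63 and 4.31 times for Mdm2. Levels of different genes are therefore set side by side after rescaling to exonic length. Comparisons of 1 gene between groups use FPKM as deposited unless stated. The rescaling takes the counted reads as exonic, which was not tested. Any intronic reads in the counts would raise genes with long introns on that scale. The read totals recovered behind the scale were 7240000 to 27390000 per library. An FPKM is a share of a library, so a fall of a gene and a rise of other transcripts cannot be told apart. A loss of RNA shared by all genes does not show.

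The labelled cells were checked against marker lists. All 10 oocyte markers were at a mean FPKM of 1 or more in each egg and early 2-cell group. In late embryos 10 of 10 were in those labelled MZ-KO, with a sum of 48.6 to 151 FPKM, and 9 of 10 in WT, with a sum of 56.9 to 87.4 FPKM. A list of 10 genes of 2-cell transcription summed to 63.4 to 148 FPKM in late embryos labelled MZ-KO and to 91.1 to 342 FPKM in WT late embryos, with overlap. No one of 12 cumulus and granulosa cell markers reached that level in any group, and their summed level was at most 1.24 FPKM in every library. The blood and immune list summed to 15.1 to 74.8 FPKM in late embryos labelled MZ-KO and to 5.68 to 13.1 FPKM in WT late embryos, with 1 of its 9 genes at a mean of FPKM 1 or more, the globin gene Hba-a1, and Ptprc, the pan-leukocyte marker, at 0 in both. The sperm list summed to 7.60 to 13.5 FPKM in late embryos labelled MZ-KO and to 10.1 to 28.7 FPKM in WT late embryos, with 1 of its 7 genes at that level, the protamine gene Prm1. The part of these lists in the late comparison was not tested.

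Trp53 was lower than in WT in early embryos labelled MZ-KO, and no difference passed the test in eggs or late embryos. It had 8.45, 9.81 and 6.33 FPKM in the 3 eggs labelled KO, against 6.16, 7.16 and 10.3 FPKM in the 3 WT eggs. The groups overlapped, and the difference of 0.06 on the log2(FPKM + 1) scale (SE 0.25, limma adjusted p = 0.96) was within the spread between eggs. In early embryos, Trp53 had a lowest value of 0.311, a median of 0.856 and a highest value of 1.11 FPKM in those labelled MZ-KO, against 2.60, 6.29 and 9.29 FPKM in WT.

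Every early embryo labelled MZ-KO lay below every WT early embryo for Trp53. The means were 0.770 ± 0.326 FPKM in embryos labelled MZ-KO and 6.05 ± 2.64 FPKM in WT (SD, n = 6 and 8), a ratio of 0.127. The difference was -1.92 on the log2(FPKM + 1) scale (SE 0.25, limma adjusted p = 0.0013), and about 76 to 223 reads per library fell on the gene in embryos labelled MZ-KO, against 251 to 1993 in WT. In late embryos Trp53 had 1.48, 2.62 and 5.39 FPKM as the lowest, median and highest value in those labelled MZ-KO, against 0.557, 2.95 and 7.09 FPKM in WT.

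The late groups overlapped through most of their range. The late difference was -0.03 (SE 0.36, limma adjusted p = 0.96), with a 95% interval of -0.80 to 0.74. The Trp53 level thus goes with the label in early embryos. No difference from WT passed the test in the eggs labelled KO or the late embryos labelled MZ-KO. The stretch from the start of exon 2 to the end of exon 10, introns included, is 33.6% of the gene span, 3872 of 11515 bases at chr11:69586891-69590762, and a value summed over the gene does not tell deleted exons from those kept. It cannot be told apart here whether the RNA in these 2 groups holds the deleted exons, and directions below are given by label.

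The genotype difference in Trp53 itself differed between stages. From eggs to early embryos it moved by -1.98 on the log2 scale (SE 0.42, limma adjusted p = 0.044), where 0.351% of 9676 genes passed. That call was lost on leaving out any one of the 6 eggs, with adjusted p of 0.068 to 0.17. From early to late embryos the genotype difference moved by 1.88 (SE 0.44, limma adjusted p = 0.0035; 20.4% of 11558 genes passed), and this call held on leaving out each of the 26 embryos in turn. Among embryos labelled MZ-KO alone, Trp53 averaged 2.82 ± 1.38 FPKM in late and 0.770 ± 0.326 FPKM in early embryos (SD, n = 6 each), with no overlap and a difference of 1.06 (SE 0.21, limma adjusted p = 3.2e-04).

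**Figure D1:**
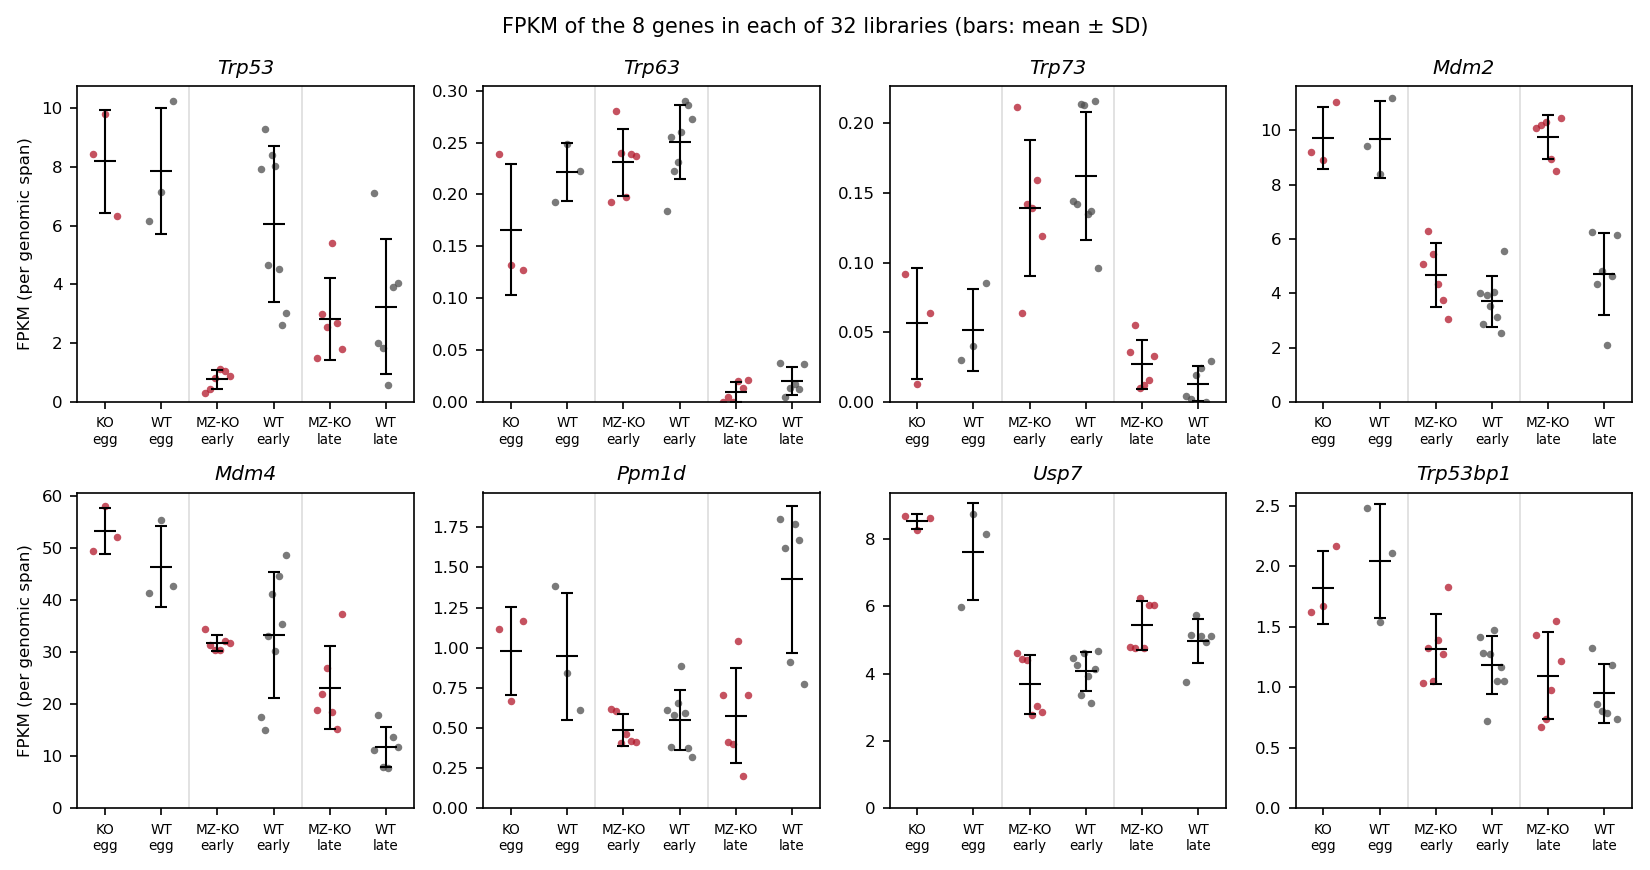
FPKM per genomic span of each of the 8 genes in every library (points; KO and MZ-KO red, WT grey), with group means and SD as bars, by stage. Trp53 is low in the early embryos labelled MZ-KO, at 1.11 FPKM or less, and Mdm2 in late embryos separates the groups, with 8.52 FPKM or more in those labelled MZ-KO and at most 6.27 FPKM in WT.

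The plot of FPKM by library shows the 8 genes on their own axes. For Trp53 the SD was 49.0% of the mean in late embryos labelled MZ-KO and 71.2% in WT late embryos. No single library stood apart from the rest of its group in any of the 32 sets of values that hold 4 to 10 libraries. The egg groups, of 3 libraries each, were outside this check. For Mdm4, the WT early embryos numbered 1 and 2 together lay apart from the rest, as given below.

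Trp63, the family member known for oocyte quality control, was low per genomic span and fell between the early and late 2-cell stages in both genotypes. Per exonic length it averaged 4.12 ± 1.57 in eggs labelled KO and 5.50 ± 0.696 in WT eggs (SD, n = 3 each), and 5.74 ± 0.799 and 6.21 ± 0.890 in early embryos labelled MZ-KO and WT early embryos (n = 6 and 8). Late embryos had 0.244 ± 0.237 when labelled MZ-KO and 0.497 ± 0.332 in WT (n = 6 each), and 2 of the 6 labelled MZ-KO were listed at 0.

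No late embryo reached the level of any early embryo for Trp63. FPKM 1 per span was never reached, so the gene did not pass the filter on low values, and its tests come from the fit on exonic length. There the fall was -2.45 in embryos labelled MZ-KO (SE 0.19, limma adjusted p = 1.5e-08) and -2.29 in WT (SE 0.17, limma adjusted p = 1.9e-09) from early to late. In those fits 77.7% and 82.0% of genes passed. Trp63 cleared their filter only through early embryos: late values reached at most 0.521 in those labelled MZ-KO and 0.919 in WT. Without a filter, on FPKM as deposited, it moved by -0.29 in both (limma adjusted p = 2.0e-05 and 3.5e-06). There 14095 of 34488 and 15824 of 35462 genes passed. On exonic length the genotype difference was -0.38 in eggs (SE 0.28, adjusted p = 0.72) and -0.10 in early embryos (SE 0.13, adjusted p = 0.74).

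Trp73, whose product in mice is needed for neural development and for cilia, was the lowest of the 8 genes per exonic length in eggs. It averaged 0.855 ± 0.608 in eggs labelled KO and 0.784 ± 0.444 in WT eggs (SD, n = 3 each), on exonic length. Early embryos had 2.11 ± 0.736 when labelled MZ-KO and 2.46 ± 0.694 in WT (n = 6 and 8), and late embryos 0.410 ± 0.266 and 0.197 ± 0.190 (n = 6 each). No late embryo reached the level of any early embryo of its genotype.

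On exonic length the WT step from egg to early embryo was 0.96 (SE 0.23, limma adjusted p = 0.0048) with every WT early embryo above every WT egg, and the step in KO material was 0.77 (SE 0.29, limma adjusted p = 0.055), with overlap. Without the filter and on FPKM as deposited the WT step was 0.14 (adjusted p = 0.079). The later fall in WT was -1.52 (SE 0.17, limma adjusted p = 3.7e-07) on exonic length, where 82.0% of genes passed. Only early embryos cleared the filter there, with late values of at most 0.440. Without a filter, on FPKM as deposited, the WT fall was -0.20 (limma adjusted p = 1.3e-04), where 15824 of 35462 genes passed. In embryos labelled MZ-KO the gene missed the filter on exonic length too. Without a filter, on FPKM as deposited, it fell there by -0.15 (limma adjusted p = 0.0028), where 40.9% of 34488 genes passed. Trp73os, an antisense gene that lies within Trp73, averaged 0.556 ± 0.201 FPKM in early embryos labelled MZ-KO and 0.429 ± 0.195 FPKM in WT early embryos. Without strand, its reads and those of Trp73 cannot be told apart. The small RNA gene Gm26036 in Trp73, and Gm24928 and Gm27005 in Trp63, were listed at 0 in every library.

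Mdm2, the main ubiquitin ligase of p53, was higher in late embryos labelled MZ-KO than in WT late embryos. Its lowest, median and highest values in late embryos were 8.52, 10.2 and 10.5 FPKM in those labelled MZ-KO, against 2.09, 4.74 and 6.27 FPKM in WT. Every late embryo labelled MZ-KO lay above every WT late embryo. The means were 9.76 ± 0.818 FPKM in late embryos labelled MZ-KO and 4.72 ± 1.52 FPKM in WT (SD, n = 6 each), a ratio of 2.07 and a difference of 0.96 on the log2 scale (SE 0.20, limma adjusted p = 0.0032).

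The Mdm2 call held on leaving out each of the 12 libraries, with a difference of 0.79 to 1.04. In eggs, Mdm2 had 9.19, 8.93 and 11.03 FPKM in those labelled KO, against 9.41, 8.41 and 11.2 FPKM in WT, a difference of 0.01 (SE 0.20, 95% interval -0.46 to 0.47, adjusted p = 0.99). In early embryos it had 3.07, 4.71 and 6.28 FPKM as the lowest, median and highest value in those labelled MZ-KO, against 2.52, 3.73 and 5.56 FPKM in WT.

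These early groups overlapped, and the early difference was 0.27 (SE 0.16, limma adjusted p = 0.34). The genotype difference in Mdm2 was larger in late than in early embryos by 0.69 (SE 0.25, limma adjusted p = 0.047). That last call is weak: it was lost with median-ratio scaling (adjusted p = 0.19, or 0.25 with exonic length added), on exonic length alone (adjusted p = 0.077), with a pseudocount of 0.1 (adjusted p = 0.083) and without the filter (adjusted p = 0.10). It was kept in a fit over all libraries (adjusted p = 0.033) and on leaving out a library in 7 of 26 fits.

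Between stages, Mdm2 fell in WT to 3.70 ± 0.939 FPKM in early embryos, against 9.67 ± 1.41 FPKM in eggs (SD, n = 8 and 3), with no overlap. That was -1.20 on the log2 scale (SE 0.18, limma adjusted p = 2.3e-04), and in KO material the same step was -0.94 (SE 0.19, limma adjusted p = 0.0029). Between the early and late stages, Mdm2 rose in embryos labelled MZ-KO by 0.95 (SE 0.15, limma adjusted p = 5.3e-05), with every late embryo above every early one. In WT it moved by 0.26 (SE 0.19, limma adjusted p = 0.22), with overlap.

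Mdm4, the Mdm2 partner that holds p53 inactive, was the most abundant of the 8 genes per exonic length in eggs and early embryos. Its lowest, median and highest values in late embryos were 15.3, 20.4 and 37.3 FPKM in those labelled MZ-KO, against 7.83, 11.5 and 18.0 FPKM in WT. The late groups overlapped by 1 embryo of each, while all 6 labelled MZ-KO lay above the WT mean. The means were 23.1 ± 7.99 FPKM in late embryos labelled MZ-KO and 11.7 ± 3.82 FPKM in WT (SD, n = 6 each), a difference of 0.91 (SE 0.24, limma adjusted p = 0.013).

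This Mdm4 call held on leaving out each of the 12 libraries, with adjusted p of 0.0070 to 0.030. In eggs, Mdm4 had 49.5, 58.2 and 52.2 FPKM in those labelled KO, against 41.3, 55.3 and 42.7 FPKM in WT (difference 0.20, SE 0.20, adjusted p = 0.80). In early embryos it had 30.3, 31.5 and 34.4 FPKM as the lowest, median and highest value in those labelled MZ-KO, against 15.0, 34.3 and 48.6 FPKM in WT.

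The early embryos labelled MZ-KO were close together, with an SD that was 4.64% of the mean, against 36.4% in WT, where the embryos numbered 1 and 2 stood at 17.6 and 15.0 FPKM and the other 6 at 30.2 FPKM or more. The early difference was 0.03 (SE 0.23, adjusted p = 0.96), and its sign turned on leaving out either of those 2, to -0.08 or -0.11. Mdm4 fell between the early and late stages, by -0.50 in embryos labelled MZ-KO (SE 0.19, limma adjusted p = 0.026) and by -1.38 in WT (SE 0.27, limma adjusted p = 2.0e-04). The call in embryos labelled MZ-KO was lost on leaving out the late embryos numbered 1, 4 or 5, with adjusted p of up to 0.056. The change of the genotype difference between these stages was 0.88 (SE 0.35, limma adjusted p = 0.072).

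Mdm4 also overlaps a short pseudogene, Gm29257, at 3.97 ± 2.46 FPKM in late embryos labelled MZ-KO and 4.62 ± 1.84 FPKM in WT late embryos, so a few of its reads may be shared. It fell from egg to early embryo in KO material by -0.73 (SE 0.11, limma adjusted p = 5.5e-04), and in WT the step was -0.56 (SE 0.33, adjusted p = 0.18).

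Ppm1d, the phosphatase that switches off p53 and the kinases upstream of it, was lower in late embryos labelled MZ-KO than in WT late embryos. Its lowest, median and highest values in late embryos were 0.200, 0.559 and 1.04 FPKM in those labelled MZ-KO, against 0.775, 1.65 and 1.80 FPKM in WT. The groups overlapped through the 2 lowest WT embryos, and all 6 labelled MZ-KO lay below the WT mean. With 1 and 4 of 6 libraries at FPKM 1 or more, the gene missed the filter on low values for this comparison.

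On exonic length, Ppm1d was lower by -1.25 (SE 0.33, limma adjusted p = 0.012) in late embryos labelled MZ-KO than in WT, and without the filter by -0.62 (limma adjusted p = 0.044), where 7.88% of 32759 genes passed. In the authors' deposited table, which gives log2 of WT over MZ-KO in late embryos, Ppm1d stood at 1.498 (adjusted p = 9.8e-04). Early embryos had 0.487 ± 0.0999 FPKM when labelled MZ-KO and 0.551 ± 0.186 FPKM in WT (SD, n = 6 and 8), with overlap. Its levels in eggs were 1.11, 0.667 and 1.16 FPKM in those labelled KO, against 1.38, 0.844 and 0.611 FPKM in WT (difference 0.04, SE 0.22, adjusted p = 0.97).

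In WT, Ppm1d rose from early to late embryos by 1.23 on exonic length (SE 0.24, limma adjusted p = 1.8e-04), while embryos labelled MZ-KO moved by 0.10 (SE 0.29, adjusted p = 0.77). The change of the genotype difference between these stages was -1.13 on exonic length (SE 0.38, limma adjusted p = 0.041) and -0.56 without the filter (adjusted p = 0.056).

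Usp7, which stabilises Mdm2 and p53, did not pass the test between genotypes at any stage. Its egg values were 8.67, 8.28 and 8.62 FPKM in those labelled KO, against 5.99, 8.73 and 8.15 FPKM in WT (difference 0.16, SE 0.20, adjusted p = 0.84). In late embryos the lowest, median and highest values were 4.78, 5.41 and 6.25 FPKM in those labelled MZ-KO, against 3.76, 5.13 and 5.73 FPKM in WT. These groups overlapped, with a late difference of 0.11 (95% interval -0.19 to 0.41, adjusted p = 0.57).

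Across stages Usp7 fell in both genotypes after the egg. Early embryos averaged 3.69 ± 0.881 FPKM when labelled MZ-KO, against 8.52 ± 0.214 FPKM in eggs labelled KO (SD, n = 6 and 3; difference -1.04, SE 0.17, limma adjusted p = 8.9e-04). WT early embryos averaged 4.07 ± 0.570 FPKM, against 7.62 ± 1.44 FPKM in WT eggs (SD, n = 8 and 3; difference -0.76, SE 0.15, limma adjusted p = 0.0013). The later rise in embryos labelled MZ-KO was 0.47 (SE 0.15, limma adjusted p = 0.0098), and it was 0.22 (adjusted p = 0.18) with median-ratio scaling. In WT the same step was 0.24 (SE 0.12, limma adjusted p = 0.074). The change of the genotype difference between these stages was 0.24 (SE 0.17, limma adjusted p = 0.36). The short RNA gene Gm25805, which lies within Usp7, averaged 2.17 ± 3.17 FPKM in late embryos labelled MZ-KO and 5.41 ± 2.90 FPKM in WT late embryos.

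Trp53bp1, whose product binds p53 and steers double-strand break repair, was close to FPKM 1 in most embryos. It had 1.62, 1.67 and 2.17 FPKM in eggs labelled KO, against 2.48, 1.54 and 2.11 FPKM in WT eggs (difference -0.10, SE 0.19, adjusted p = 0.89). In late embryos its values ran from 0.670 to 1.55 FPKM in those labelled MZ-KO and from 0.735 to 1.33 FPKM in WT. The groups overlapped at each stage.

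In WT, Trp53bp1 fell to 1.18 ± 0.240 FPKM in early embryos, against 2.04 ± 0.473 FPKM in eggs (SD, n = 8 and 3; difference -0.48, SE 0.14, limma adjusted p = 0.012), and leaving out the WT egg numbered 1 ended the call (adjusted p = 0.071). The gene shares 5490 bases with Tubgcp4 on the opposite strand, which averaged 1.13 ± 0.332 FPKM in late embryos labelled MZ-KO and 0.598 ± 0.185 FPKM in WT late embryos. Without strand, reads in that stretch cannot be assigned.

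**Figure D2:**
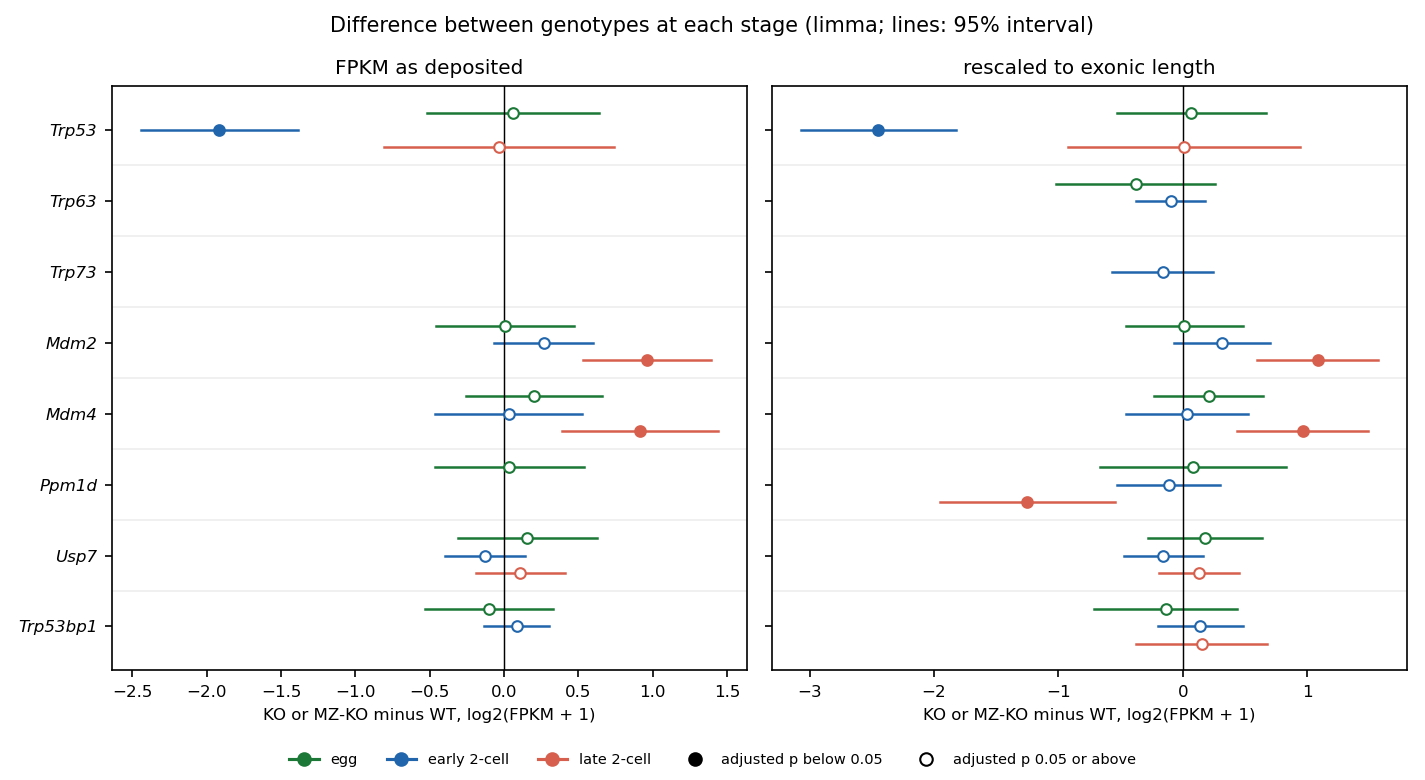
Difference between KO or MZ-KO and WT on the log2(FPKM + 1) scale for each gene at 3 stages, with 95% intervals, on FPKM as deposited (left) and rescaled to exonic length (right); filled points have an adjusted p below 0.05 and genes that missed the filter on low values have no point. Trp53 is lower in early embryos, and in late embryos Mdm2 and Mdm4 are higher and, on exonic length, Ppm1d is lower.

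The plot of genotype differences gathers these tests. Of the 8 genes, 6 were tested in eggs and 0 passed (0.333% of 6607 genes tested passed), with none of them at an unadjusted p under 0.05. In early embryos 5 were tested and 1 passed, Trp53, where 3.28% of 7675 genes passed. On exonic length all 8 were tested there and Trp53 alone passed (-2.45, SE 0.29, limma adjusted p = 3.4e-04), where 2.37% of genes did. In late embryos 4 were tested and 2 passed, Mdm2 and Mdm4, where 31.9% of 8772 genes passed, so that this count cannot be set apart from the background. On exonic length 6 were tested in late embryos and 3 passed, with a background of 26.8%.

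Scaling matters for the late comparison as a whole. With median-ratio scaling the median gene differed by -0.08, against 0.07 on FPKM as deposited. Calls then numbered 1097 higher and 1628 lower in embryos labelled MZ-KO, where FPKM as deposited gave 1624 higher and 1178 lower. Relative to the median gene, the FPKM differences of Mdm2 and Mdm4 stand above it on either scaling. Under it Mdm2 differed by 0.79 (limma adjusted p = 0.00693) and Mdm4 by 0.73 (limma adjusted p = 0.029), both still higher in embryos labelled MZ-KO. In the authors' deposited table, Mdm2 stood at -0.87 (adjusted p = 7.5e-04) and Mdm4 at -0.78 (adjusted p = 0.014) as log2 of WT over MZ-KO, so higher in MZ-KO. With Ppm1d, 3 of the 8 genes passed there, where 20.6% of 23684 genes did. The same table gives 0.34 (adjusted p = 0.69) for Trp53.

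**Figure D3:**
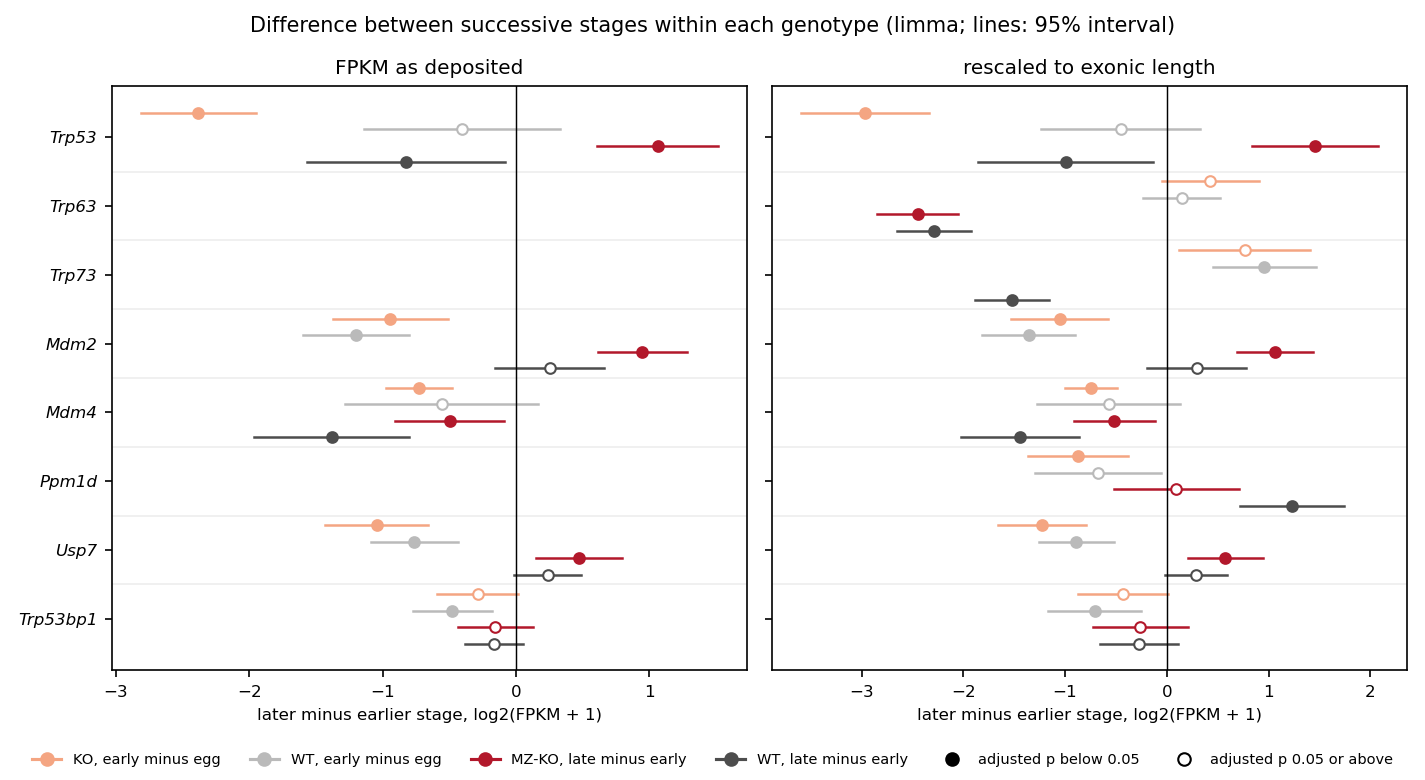
Difference between successive stages on the log2(FPKM + 1) scale within KO or MZ-KO and within WT, with 95% intervals, on FPKM as deposited (left) and on exonic length (right); filled points have an adjusted p below 0.05. From egg to early embryo Mdm2 and Usp7 fall in both genotypes and Trp53 falls in KO material; from early to late embryo Trp63 falls in both on exonic length.

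The plot of stage differences covers 4 steps. From egg to early embryo, 4 of 5 genes tested passed in KO material (49.2% of 8305 genes passed) and 3 of 5 in WT (51.3% of 8619), each with a negative difference. On exonic length, where 41.2% and 45.1% of genes passed, Ppm1d also fell in KO material, by -0.88 (SE 0.22, limma adjusted p = 0.0092), and moved by -0.68 in WT (limma adjusted p = 0.069). Trp53 fell by -2.38 in KO material (SE 0.19, limma adjusted p = 1.7e-05), while WT moved by -0.40 (SE 0.34, adjusted p = 0.33). From early to late, 4 of 5 passed in embryos labelled MZ-KO (81.7% of 8944) and 2 of 5 in WT (85.0% of 9319), Trp53 and Mdm4.

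The fall of Trp53 in WT embryos, -0.82 (SE 0.35, limma adjusted p = 0.038), was lost without the filter (adjusted p = 0.084). It was also lost on leaving out any one of 7 of the 14 libraries, WT early embryos 1, 2, 4 or 5 or WT late embryos 2, 3 or 4, with adjusted p of up to 0.11. On exonic length 5 of 7 genes tested passed from early to late in embryos labelled MZ-KO, where 77.7% of genes did, and 5 of 8 in WT, where 82.0% did. The median gene moved by 0.39 from early to late in embryos labelled MZ-KO and by 0.11 with median-ratio scaling, against 0.47 and 0.22 for Usp7.

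**Figure D4:**
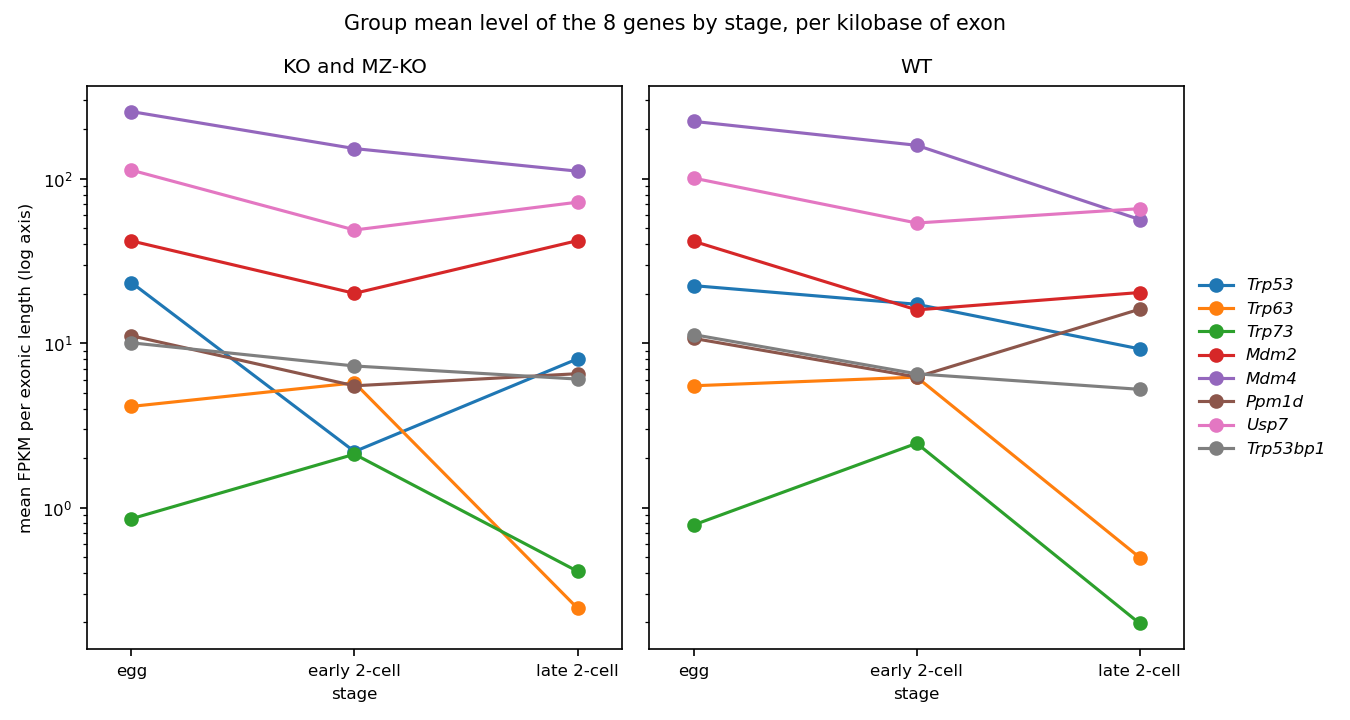
Mean level of each of the 8 genes by stage, as FPKM rescaled to exonic length on a log axis, in KO and MZ-KO (left) and in WT (right). Mdm4 and Usp7 are the highest at each stage, and Trp63 and Trp73 the lowest in late embryos.

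The plot of levels per exonic length orders the genes, and that order depends on the rescaling. As deposited, Usp7 in WT eggs averaged 7.62 FPKM, below Mdm2 at 9.67 FPKM and Trp53 at 7.86 FPKM. In WT eggs Mdm4 stood at 223 ± 37.1, Usp7 at 101 ± 19.1, Mdm2 at 41.6 ± 6.05 and Trp53 at 22.4 ± 6.07 (SD, n = 3), without overlap between neighbours. Trp53bp1 at 11.3 ± 2.61 and Ppm1d at 10.7 ± 4.48 overlapped each other, Trp63 followed at 5.50 ± 0.696, and Trp73 was last. The order in eggs labelled KO was the same but for Ppm1d, at 11.1 ± 3.09, and Trp53bp1, at 10.0 ± 1.66, which overlapped.

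In late embryos the order of the leading pair differed by label. Mdm4 stood at 111 ± 38.4 and Usp7 at 72.0 ± 9.66 in those labelled MZ-KO, and Mdm4 at 56.4 ± 18.4 and Usp7 at 65.7 ± 8.61 in WT, with overlap in both (SD, n = 6 each). In early embryos Trp53 was at 2.19 ± 0.929 in those labelled MZ-KO, next to Trp73 at 2.11 ± 0.736, and at 17.2 ± 7.52 in WT, next to Mdm2 at 15.9 ± 4.04; each pair overlapped.

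Genes whose profile over the 6 groups was most like that of each gene were sought by the root mean square distance between centred mean log2(FPKM + 1) profiles, among 8045 genes. The distance is not scaled to how far a gene moves, so genes that move little tend to have small distances. Distances are therefore not compared between members. Nearest to Trp53 were Cd300c, Hist2h4, Zfp518a, Suco and Ern1 at 0.416 to 0.535. Among the nearest to Mdm2 were Psma1 and Dnajc21 at 0.0971 to 0.117. Dlgap5, Mrps14 and Mzt1 were nearest to Mdm4 at 0.0987 to 0.111. Tut7 and Ticrr were among the nearest to Ppm1d at 0.0791 to 0.0891, and Eprs, Clspn and Xrcc1 were nearest to Usp7 at 0.0734 to 0.0984. Herc2, Cdc7 and Alg13 were nearest to Trp53bp1 at 0.0419 to 0.0511.

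The wider p53 pathway was read through 7 lists drawn from general knowledge. Between eggs labelled KO and WT eggs, 0 genes of any list passed, where 0.333% of all genes tested did. In early embryos, 1 of 3 tested Mdm2 inhibitors and 1 of 7 tested 53BP1 partners passed, and 0 of the other 5 lists, where 3.28% of all genes tested passed. None of the 14 tested p53 targets did (median difference -0.02, against 0.05 over all genes tested). On exonic length 1 of 10 tested p53 kinases passed as well, Atm, lower in embryos labelled MZ-KO, where 2.37% of genes passed. H2afx, the histone variant phosphorylated at broken DNA, averaged 3.85 ± 1.58 FPKM in early embryos labelled MZ-KO and 0.919 ± 0.596 FPKM in WT (SD, n = 6 and 8; difference 1.33, SE 0.26, limma adjusted p = 0.016). Its adjusted p was 0.083 without the filter and 0.0502 with a pseudocount of 0.1. Npm1, the nucleolar protein that can hold Mdm2, averaged 9.82 ± 1.02 and 6.81 ± 1.25 FPKM in the same groups (difference 0.48, limma adjusted p = 0.037). Its adjusted p was 0.066 with median-ratio scaling, 0.072 with exonic length added to that, and 0.14 both without the filter and in a fit over all libraries.

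In late embryos the p53 targets moved in both directions. Of 30 in the table, 18 were tested, 3 rose and 5 fell, and the median difference was -0.41, against 0.07 over all genes tested, of which 18.5% rose and 13.4% fell. Cdkn1a, which encodes the cell cycle inhibitor p21, averaged 26.6 ± 8.15 FPKM in late embryos labelled MZ-KO and 5.84 ± 3.80 FPKM in WT (SD, n = 6 each), a difference of 2.16 (SE 0.38, limma adjusted p = 0.0011). Gadd45a, a stress-induced growth arrest gene, averaged 11.7 ± 4.41 FPKM in late embryos labelled MZ-KO and 30.8 ± 10.4 FPKM in WT (difference -1.33, SE 0.27, limma adjusted p = 0.0030).

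Tigar, a regulator of sugar breakdown, fell by -1.14 (SE 0.17, limma adjusted p = 4.3e-04) and the antiproliferative gene Btg2 by -1.41 (SE 0.44, limma adjusted p = 0.027). Of 9 tested ubiquitin ligases and deubiquitinases other than the members, 0 rose and 2 fell, Otub1 (-1.53, SE 0.18, limma adjusted p = 1.3e-04) and Topors (-0.78, limma adjusted p = 0.027). Otub1, which keeps ubiquitin off p53, averaged 5.17 ± 1.16 FPKM in late embryos labelled MZ-KO and 16.9 ± 3.495 FPKM in WT (SD, n = 6 each), with no overlap.

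Of 8 tested p53 kinases, 1 rose, Mapk8 (0.41, limma adjusted p = 0.015), and 1 fell, the mitotic kinase Aurka (-0.54, limma adjusted p = 0.039). Of 9 tested acetylases, deacetylases and methylases, 1 rose, Kat8 (0.53, limma adjusted p = 0.025), and 2 fell, Sirt1 (-0.66, limma adjusted p = 0.0061) and Hdac1 (-0.41, limma adjusted p = 0.038). Of 6 tested Mdm2 inhibitors, 1 fell, the ribosomal protein gene Rps27a (-0.69, limma adjusted p = 0.031). Of 6 tested 53BP1 partners, 1 rose, Nudt16l1, which encodes a 53BP1-binding protein, at 3.21 ± 2.17 FPKM in late embryos labelled MZ-KO and 0.489 ± 0.517 FPKM in WT (limma adjusted p = 0.017). Of 7 tested p53 cofactors, 0 passed. Over all genes tested in late embryos, 18.5% rose and 13.4% fell. Counts this small do not set these lists, or the ubiquitin ligases and deubiquitinases, apart from that background. Without the filter, the calls of Btg2, Topors, Aurka, Kat8, Hdac1, Rps27a and Nudt16l1 were lost, and with median-ratio scaling that of Kat8 (adjusted p = 0.13). On exonic length, where 26.8% of genes passed, the kinase gene Atm and the Mdm2 inhibitor Rassf1 also rose. The fall of the p53 target Aen was not called there.

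Across stages the lists moved widely, as most genes did. From early to late, 7 of 8 tested acetylases, deacetylases and methylases rose in embryos labelled MZ-KO (median 1.30, against 0.39 over all genes tested, of which 48.3% rose) and 5 of 8 in WT (median 1.31, against 0.26, with 46.6% of all genes tested rising). Prmt5, an arginine methylase, rose by 2.22 in embryos labelled MZ-KO and 2.07 in WT. Other lists rose at this step too. Of 7 tested p53 cofactors, 5 rose and 1 fell in each genotype (median 1.21 in embryos labelled MZ-KO and 1.01 in WT). Of the tested Mdm2 inhibitors, 3 of 5 rose in embryos labelled MZ-KO (median 0.52) and 4 of 6 in WT (median 1.35). Of 7 tested p53 kinases, 2 rose in each genotype, while 4 fell in embryos labelled MZ-KO and 2 in WT. The checkpoint kinase gene Chek1 fell by -3.52 in embryos labelled MZ-KO and -4.08 in WT, while Chek2 rose by 2.28 and 1.85. Wrap53, a telomerase cofactor whose gene is the neighbour of Trp53, averaged 3.35 ± 0.869 FPKM in late and 0.012 ± 0.0242 FPKM in early embryos labelled MZ-KO (SD, n = 6 each), and 3.30 ± 0.858 and 0.0876 ± 0.133 FPKM in WT (n = 6 and 8). From egg to early embryo, Ing1, a chromatin reader that cooperates with p53, fell by -2.26 in KO material and -2.28 in WT (limma adjusted p = 3.6e-05 and 2.6e-06).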

How the data were processed

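The authors deposited 1 table of FPKM per gene for 32 libraries, with their own comparison of late embryos. Per the submitters' processing notes, the reads were handled with TopHat2, DESeq and DESeq2 on the mm10 build; how each was used is not stated. The authors' FPKM values proved to be per genomic span, as described in the report, and depth is that recovered from low values. The authors' log2 fold changes and p-values in that table are not named by group in its header; across genes its log2 ratio followed WT over MZ-KO late embryos (r = 0.9995) and not early embryos (0.150) or eggs (0.0236). The late MZ-KO columns are headed KO_2LC, and the authors' mean column equals the mean of those 6. Columns carry no replicate number, so libraries are numbered by column within a group, which pairs nothing. Spans, exons and names come from GENCODE M21.

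From these values, limma 3.58.1 (R 4.3.3, statmod 1.5.0) was fitted to log2(FPKM + 1) with a mean trend and robust moderation, on the groups of each comparison, over genes at FPKM 1 or more in as many libraries as the smaller group holds. P-values were adjusted by Benjamini-Hochberg over all genes tested, with a threshold of 0.05; tests are two-sided. A fold change on this scale understates the change of low genes. Changes of a genotype difference are interaction terms. The fit was tested on simulated data. Alternatives were no filter, a pseudocount of 0.1, exonic length, median-ratio scaling, a fit over all libraries and leaving out each library. In comparisons of early embryos with eggs, only the eggs were left out in turn. Exonic length together with median-ratio scaling was added after seeing the data. All 8 genes are named; every overlapping gene is named; list genes are named where called, by size of difference, at most 4 a list in a genotype comparison and 2 between stages; and the most similar profiles are named, 5 for Trp53 and 3 for other members at FPKM 1 or more in 3 libraries, of which some are not reported here. Members and lists were chosen with earlier results of these data known.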

Additional observations from a re-analysis of the deposited data

Results flagged for a closer look

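The genotype difference in Trp53 differed between stages by an interaction test in limma. Between early 2-cell embryos and eggs the change was -1.98 on the log2(FPKM + 1) scale (adjusted p = 0.044), and between late and early embryos it was 1.88 (adjusted p = 0.0035). The genotype difference in Mdm2 changed by 0.69 between late and early embryos (adjusted p = 0.047), the smallest of the 3 changes. Leaving out any one of the 6 eggs ended the Trp53 call between early embryos and eggs. Fitting without the filter ended it too (limma adjusted p = 0.15). The Mdm2 call was kept in 7 of 26 fits that left out a library.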

How the results depend on the processing

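No paired analysis was possible because the labels give no batch or pairing, and nothing ties libraries to a shared litter or day. The lower Trp53 in early embryos and the higher Mdm2 and Mdm4 in late embryos labelled MZ-KO kept direction and call under every alternative and left-out library.

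Differences that did not pass the test changed sign as follows. In eggs, median-ratio scaling gave -0.0128 for Trp53 and -0.0658 for Mdm2, and with exonic length added -0.0126 and -0.0711. It also gave -0.00247 for Ppm1d in eggs and -0.00475 for Mdm4 in early embryos, the second being -0.00217 with exonic length added. In late embryos Trp53 was 0.0408 with a pseudocount of 0.1 and 0.00669 on exonic length, and Usp7 was -0.0616 with median-ratio scaling and -0.0694 with exonic length added. For Trp53bp1 the change of the genotype difference from early to late was -0.12 and -0.21 under those same settings. Leaving out a library gave -0.0776 to 0.248 for Trp53, -0.0771 to 0.109 for Mdm2, -0.0911 to 0.192 for Ppm1d and -0.226 to 0.000725 for Trp53bp1 in eggs, -0.11 to 0.12 for Mdm4 in early and -0.28 to 0.19 for Trp53 in late embryos. It gave -0.246 to 0.0368 for the change of Ppm1d from eggs to early embryos and -0.0511 to 0.0707 for that of Trp53bp1 from early to late.

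Of the 8 genes, the WT step from egg to early embryo called 5 with exonic length and median-ratio scaling, against 3. From early to late in WT, 4 were called without a filter and 5 on exonic length, with or without median-ratio scaling, against 2, and 1 to 3 on leaving out a library. For the change of the genotype difference from eggs to early embryos, 0 were called without a filter, in the fit over all libraries, with median-ratio scaling and without any one egg, against 1. Between the early and late stages, 1 was called without a filter, with a pseudocount of 0.1 and with median-ratio scaling, against 2, and 1 to 4 on leaving out a library. The cause was not tested.

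Counts of all genes called moved more. In eggs they were 6 without a filter, 8 with a pseudocount of 0.1, 34 on exonic length and 38 with median-ratio scaling added, against 22, and 6 to 38 without 1 library. In early embryos they were 56 without a filter, against 252, and 105 to 351 without 1 library, and in late embryos 4935 in the fit over all libraries, against 2802. Exonic length, alone and with median-ratio scaling, gave 7040 and 7334 from egg to early in WT, against 4423. Between early and late it gave 11946 and 11936 in embryos labelled MZ-KO, against 7303, and 12957 and 12872 in WT, against 7923, where no filter gave 14095 and 15824. With both, 6363 were called from egg to early in KO material, against 4086. For the change from eggs to early embryos, 11 were called without a filter, 58 on exonic length and 62 with both, against 34, and 9 to 75 without 1 egg.

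With median-ratio scaling, 2112 genes were called higher and 2217 lower from egg to early in KO material, against 2421 and 1665. In WT it was 2261 and 2428, against 2623 and 1800. For the change of the genotype difference from early to late it was 833 and 1654, against 1392 and 971. Depth limits Trp63 and Trp73 in late embryos, where a library held 0 to 175 reads of Trp63.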
